A study of Mus musculus with 6 samples.

Results

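The levels of 10 genes of the ADAMTS family, which encodes secreted metalloproteinases of the extracellular matrix, were compared between embryonic and adult mouse knee chondrocytes. The genes are *Adamts1*, *Adamts2*, *Adamts3*, *Adamts4*, *Adamts5*, *Adamts6*, *Adamts9*, *Adamts12*, *Adamts14* and *Adamts15*, taken by name and matched through their Ensembl identifiers. All 10 were found among the 22032 genes of the mouse expression matrix. RNA-seq had been run on 3 embryonic and 3 adult samples. The labels place both stages in the knee. The embryonic cells came from E16.5 embryos per the study (the labels write 16.5 "wks") and the adult cells from 2 month old male B6 mice, and no allele or treatment was named for either stage. Cells of both stages were sorted as negative for other lineages and ALP and positive for BMPR1B (CD31-, CD45-, Ter119-, ALP- and BMPR1B+ as given for the adult cells), where BMPR1B is a receptor for bone morphogenetic proteins by which chondrocytes were enriched, and ALP stands for alkaline phosphatase. The strain and sex of the embryos and the number of animals in a sample are not given in the sources used here. The samples are described as biological replicates, and the p-values measure the spread between them.

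ADAMTS enzymes are made as inactive precursors, are trimmed by proprotein convertases and act in the extracellular matrix through a metalloproteinase domain followed by thrombospondin type 1 repeats. *Adamts1*, *Adamts4*, *Adamts5*, *Adamts9* and *Adamts15* encode enzymes that cut aggrecan and versican, the large proteoglycans that hold water in cartilage and in embryonic mesenchyme. *Adamts2*, *Adamts3* and *Adamts14* encode procollagen N-proteinases, which remove the amino-terminal propeptide of fibrillar procollagens before fibrils assemble. *Adamts6* and *Adamts12* belong to neither class. ADAMTS6 acts on the fibrillin microfibril network, and ADAMTS12 can cut COMP, a cartilage matrix protein.

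Of these 10 genes, 7 were lower in adult than in embryonic chondrocytes, *Adamts5* and *Adamts6* were higher, and *Adamts2* had close mean levels at both stages. Levels are in TPM, the number of transcripts of a gene relative to all transcripts in a sample after correction for gene length, and differences are adult minus embryonic on the log2(TPM + 1) scale, tested with limma over 13125 genes whose mean reached 1 TPM and called at a Benjamini-Hochberg adjusted p under 0.05. Of the 10 members, 2 were called higher and 7 lower in adult, whereas 23.9% of all tested genes were called higher, 21.4% lower and 45.3% in either direction. *Adamts3*, *Adamts12* and *Adamts15* had adult means under 1 TPM. They reached the mean needed for testing only through their embryonic values, so they could hardly have been called higher in adult. The median log2 fold change of the members was -2.29 and that of all tested genes 0.16. The stage ranges did not overlap for 9 of the 10 members, 7 of them lower and 2 higher in adult. Among all tested genes the ranges were apart for 56.5%, with 25.9% lower and 30.7% higher in adult. Ranked by the size of the log2 fold change among the 13125 genes, *Adamts3* stood at 95, *Adamts12* at 203, *Adamts9* at 558 and *Adamts14* at 778, and *Adamts2* was close to the end at 13106.

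**Figure D1:**
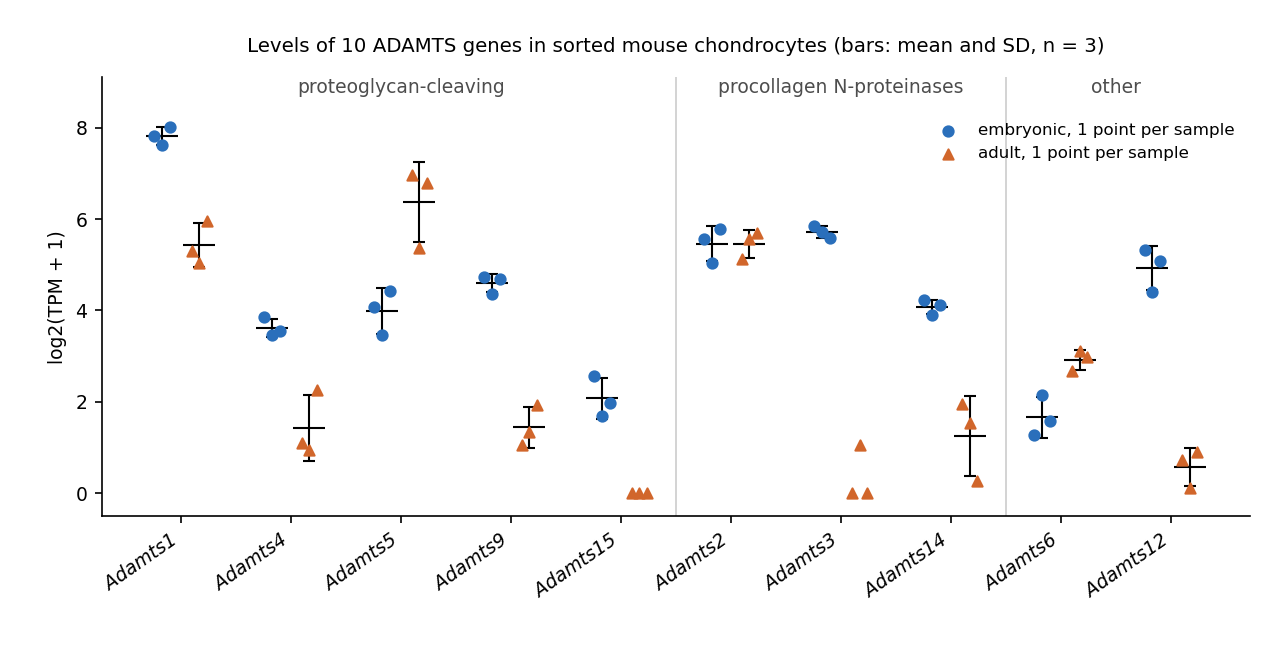
Level of each of the 10 ADAMTS genes in each sample, on the log2(TPM + 1) scale, with embryonic samples as blue circles and adult samples as orange triangles. Bars give the mean and SD of 3 samples and are left out for the adult samples of *Adamts3* and *Adamts15*, most or all of which are at 0. The adult points of *Adamts5* and *Adamts6* lie above the embryonic ones, those of *Adamts2* overlap them, and those of the other 7 genes lie below.

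Several properties of the libraries bear on these values. The 20 genes with the highest levels took 8.35% to 8.72% of the total TPM across the embryonic samples, against 13.1% to 15.3% in adult samples. Scaling moved the median log2 fold change of all genes between 0.03 (median of ratios) and 0.25 (rescaled without the 20 highest genes), and apart from *Adamts2* no member changed its sign. The 5 chondrocyte markers, *Acan*, *Col2a1*, *Hapln1*, *Matn3* and *Sox9*, summed to between 16350 and 17776 TPM across the embryonic samples and to less, 6637 to 9284 TPM, in adult ones. The sum follows *Col2a1*, whose mean was 14689 TPM in embryonic and 4706 TPM in adult samples. The list did not fall as a whole. Of the 5, 3 were called lower, *Acan* was not called and *Sox9*, the chondrocyte transcription factor, was called higher (log2 fold change 0.69, limma adjusted p = 0.01). The 6 tendon and fibroblast markers were all lower in adult, with sums of 9895 to 11470 TPM against 343 to 1060 TPM. Among them *Tnmd*, a tendon cell surface gene, was at 262, 108 and 162 TPM across the embryonic samples, against 0, 2.11 and 0.703 TPM in the adult ones. The 3 hypertrophic chondrocyte markers summed to 21.7 to 80.8 TPM in embryonic and 957 to 1322 TPM in adult samples, and the 4 osteoblast markers to 11.5 to 46.4 TPM and 252 to 396 TPM. Of the hypertrophic markers *Col10a1* and *Mmp13* were called higher in adult. *Ihh*, which was not tested, went the other way, at 2.23, 0.597 and 1.13 TPM in embryonic samples and 0 in every adult sample. Of the osteoblast markers *Ibsp* and *Bglap* were higher in adult, *Dmp1* was lower (limma adjusted p = 0.00495) and *Sp7* was not called. The 5 leukocyte markers summed to 5.71 to 14.7 TPM and 20.4 to 84.7 TPM. Of these *Cd68* and *Itgam* were called higher in adult, *Lyz2* was not called, and *Ptprc* (CD45) and *Csf1r* were not tested. *Ptprc* was at 0, 0.0613 and 0 TPM in embryonic and 2.29, 0 and 1.03 TPM in adult samples. *Csf1r* went the other way, with means of 0.68 TPM in embryonic and 0.52 TPM in adult samples. The endothelial sums were 10.9 to 33.3 TPM and 3.79 to 13.0 TPM, and that list was divided. *Tek* was called lower in adult, *Pecam1* and *Emcn* were not called, and *Cdh5* and *Kdr* were not tested. *Pecam1* was at 1.48, 1.29 and 1.75 TPM in embryonic and 2.79, 6.87 and 2.86 TPM in adult samples. The means of *Cdh5* were 0.11 TPM in embryonic and 1.25 TPM in adult samples. The mural cell sums were 63.4 to 74.5 TPM and 47.2 to 63.1 TPM (*Pdgfrb* called higher, *Rgs5*, *Acta2* and *Notch3* lower). The muscle sums were 2.06 to 4.25 TPM and 3.14 to 9.07 TPM, and the erythroid sums 0.312 to 60.8 TPM and 2.29 to 6.97 TPM. No marker of these lists was at 0 in every sample. The part of these cells in the ADAMTS differences was not tested, and in bulk samples fewer cells that express a gene and less RNA per cell cannot be told apart.

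The 10 genes lie on 9 chromosomes of GRCm38, and only *Adamts1* and *Adamts5* are on the same one. *Adamts1* spans chr16:85793827-85803113 and *Adamts5* chr16:85856173-85901828, both on the minus strand, with 53.1 kb and no protein-coding gene between them in GENCODE M21. These neighbours moved in opposite directions, as given further on. The promoter sequences of RefSeq (GRCm38.p6) cover *Adamts1*, *Adamts2*, *Adamts3*, *Adamts9*, *Adamts12* and *Adamts14*, and 4 are shown because their genes differ most in behaviour. *Adamts1* was the most abundant member in the embryo, *Adamts3* and *Adamts12* had the largest falls fitted at a pseudocount of 1, and *Adamts2* had the smallest difference. Each runs 5′ to 3′ over the 250 bases before the transcription start, from chr16:85803114-85803363 (minus strand), chr5:89883335-89883584 (minus), chr15:11064523-11064772 (plus) and chr11:50601835-50602084 (plus). Capitals mark TATAAA and GGGCGG on either strand, the latter reading CCGCCC on the other.
Adamts1: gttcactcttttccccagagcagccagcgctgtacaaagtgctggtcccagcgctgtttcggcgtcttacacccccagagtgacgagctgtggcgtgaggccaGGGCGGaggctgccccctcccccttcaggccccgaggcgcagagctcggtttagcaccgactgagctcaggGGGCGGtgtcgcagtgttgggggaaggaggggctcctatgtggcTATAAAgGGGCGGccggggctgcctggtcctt
Adamts3: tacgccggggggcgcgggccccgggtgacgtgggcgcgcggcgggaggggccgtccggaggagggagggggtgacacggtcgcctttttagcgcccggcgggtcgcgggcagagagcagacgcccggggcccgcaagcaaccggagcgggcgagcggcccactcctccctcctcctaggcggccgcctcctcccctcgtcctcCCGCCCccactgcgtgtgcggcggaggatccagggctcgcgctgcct
Adamts12: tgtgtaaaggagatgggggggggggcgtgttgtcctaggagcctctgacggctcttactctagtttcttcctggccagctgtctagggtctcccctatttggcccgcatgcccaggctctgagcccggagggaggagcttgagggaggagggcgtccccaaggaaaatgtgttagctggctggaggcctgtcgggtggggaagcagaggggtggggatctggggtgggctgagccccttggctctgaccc
Adamts2: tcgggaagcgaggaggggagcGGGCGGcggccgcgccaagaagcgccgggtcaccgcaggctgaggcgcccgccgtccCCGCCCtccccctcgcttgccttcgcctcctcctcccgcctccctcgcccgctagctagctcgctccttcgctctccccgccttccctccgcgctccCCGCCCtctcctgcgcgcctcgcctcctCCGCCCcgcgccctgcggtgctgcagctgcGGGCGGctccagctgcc
The *Adamts1* window held 1 TATAAA, starting at position -32, and 3 matches to GGGCGG. The other 5 windows held no TATAAA, and 12.4% of 32851 mouse promoter windows of this length held it. GGGCGG was found in 5 of the 6, with 5 matches in *Adamts2*, 6 in *Adamts14*, 1 each in *Adamts3* and *Adamts9* and none in *Adamts12*, and 32.7% of all windows held it. CCAAT and TGANTCA, present in 33.8% and 6.75% of all windows on either strand, were not found in any of the 6. GC content was 78.0% in both *Adamts2* and *Adamts3*, 76.4% in *Adamts14*, 71.2% in *Adamts9*, 65.6% in *Adamts1* and 63.2% in *Adamts12*, against a median of 52.4% over all windows. *Adamts2* and *Adamts3* held 34 and 35 CpG dinucleotides, and *Adamts3* was called lower in adult while *Adamts2* was not.

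Among the members that encode enzymes cutting aggrecan and versican, the leading transcript changed from *Adamts1* in the embryo to *Adamts5* in the adult. *Adamts1* was at 223, 195 and 256 TPM across the embryonic samples, but only 38.7, 31.7 and 61.0 TPM in adult samples. All embryonic values were above all adult values, and the mean was 5.13-fold lower in adult. The log2 fold change was -2.38 (SE 0.235, 95% interval -2.91 to -1.84, limma adjusted p = 9.2e-05). *Adamts5*, the main aggrecanase of mouse cartilage in models of joint damage, was at 15.8, 9.94 and 20.6 TPM in embryonic and 124, 40.0 and 109 TPM in adult samples. Adult sample 2 was the lowest of its stage, though still above every embryonic sample, and the mean was 5.91-fold higher in adult. The log2 fold change of *Adamts5* was 2.39 (SE 0.429, 95% interval 1.41 to 3.36, limma adjusted p = 0.00227), nearly the size of the *Adamts1* fall.

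*Adamts4*, the other well-studied aggrecanase, went the opposite way to *Adamts5*. It was at 13.4, 10.1 and 10.7 TPM in the embryonic and 1.13, 0.919 and 3.75 TPM in the adult samples, with no overlap. Its mean was 5.9-fold lower in adult, or 11.1-fold without adult sample 3, with a log2 fold change of -2.20 (SE 0.456, 95% interval -3.23 to -1.16, limma adjusted p = 0.00464).

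*Adamts9* and *Adamts15* also fell. *Adamts9*, whose enzyme cuts versican and is needed in embryonic tissues, was at 25.6, 19.6 and 24.7 TPM in embryonic and 1.09, 1.51 and 2.79 TPM in adult samples. The lowest embryonic value was well above the highest adult value, and the mean was 13.0-fold lower in adult (log2 fold change -3.16, SE 0.37, 95% interval -4.00 to -2.32, limma adjusted p = 0.00023). Its exons share 1381 and 424 bases with *A730049H05Rik* and *Gm15737*, genes on the other strand that are annotated as protein-coding and are not in the matrix, and 10.5% of its 50-base stretches are shared with another gene. *Adamts15* was at 4.91, 2.24 and 2.90 TPM across the embryonic samples and was listed at 0 in all 3 adult samples (limma adjusted p = 0.00748), so no fold is given. It was the least abundant of the 5 members of this class at both stages.

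Summed over the 5 proteoglycan-cleaving members, the level was 282, 237 and 315 TPM in embryonic and 165, 74.2 and 177 TPM in adult samples. The mean of the sum was 2.01-fold lower in adult. *Adamts1* made up 80.8% ± 1.79 (SD, n = 3) of the embryonic sum and 33.6% ± 9.72 of the adult sum. *Adamts5* made up 5.43% ± 1.17 of the embryonic sum and 63.6% ± 10.8 of the adult sum. Neither pair of ranges overlapped, since *Adamts5* took 4.19% to 6.52% in the embryo and 54.0% to 75.3% in the adult. The direction of the sum rests on *Adamts1*. Without it, the other 4 genes together were at 59.7, 41.9 and 58.9 TPM in embryonic and 127, 42.5 and 115 TPM in adult samples, 1.77 times as high in the adult mean. Adult sample 2 was below 2 of the embryonic samples, so the ranges overlapped.

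Ratios between members were also taken within each sample, as differences of log2(TPM + 1), so that the added 1 compresses those with a gene near 1 TPM. The log2 ratio of *Adamts5* to *Adamts4* was 0.23, -0.02 and 0.88 across the embryonic samples, so that both were at similar levels, and 5.88, 4.42 and 4.53 in the adult samples. The stage means differed by 4.58, or by 5.21 at a pseudocount of 0.1 (exact two-sided permutation p = 0.1, the smallest that 3 against 3 samples allow). The log2 ratio of *Adamts1* to *Adamts5* was 3.74, 4.17 and 3.58 in embryonic and -1.66, -0.33 and -0.83 in adult samples, a difference of -4.76 with the same exact permutation p of 0.1. *Adamts1* was therefore the higher of the neighbouring genes in every embryonic sample and the lower in every adult sample.

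**Figure D2:**
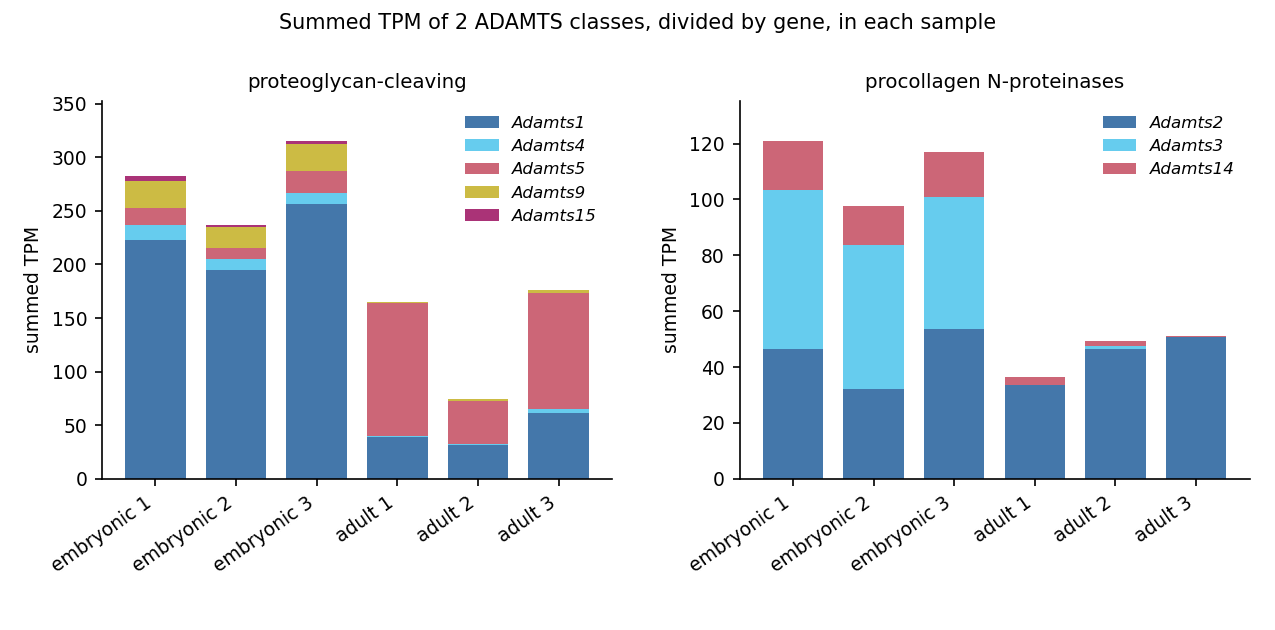
Summed TPM of the 5 proteoglycan-cleaving members (left) and the 3 procollagen N-proteinases (right) in each sample. Each bar is divided by gene and the axes start at 0. *Adamts1* fills most of the embryonic bars and *Adamts5* most of the adult bars on the left. On the right, *Adamts2* is of similar height in all samples while *Adamts3* and *Adamts14* take little of the adult bars.

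Of the 3 procollagen N-proteinases, *Adamts3* and *Adamts14* fell, and *Adamts2* had overlapping levels at both stages. *Adamts2*, whose loss causes the skin fragility of dermatosparaxis, was at 46.5, 32.0 and 53.7 TPM in embryonic and 33.7, 46.4 and 50.9 TPM in adult samples. The ranges overlapped and the 95% interval of the log2 fold change ran from -0.56 to 0.56 (limma adjusted p = 0.996), so that a difference beyond that in either direction lay outside the interval. *Adamts3*, which processes procollagen II in cartilage and, with CCBE1, activates VEGFC, was at 56.7, 51.7 and 47.1 TPM across the embryonic samples. In the adult samples it was listed at 0, 1.09 and 0 TPM (limma adjusted p = 2e-05). *Adamts14* was at 17.6, 14.0 and 16.3 TPM in embryonic and 2.84, 1.91 and 0.201 TPM in adult samples, 9.67-fold lower in the adult mean, or 15.1-fold without adult sample 1. Its log2 fold change was -2.83 (SE 0.488, 95% interval -3.94 to -1.72, limma adjusted p = 0.00183), and the adult samples were spread widely, with adult sample 3 lowest.

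The summed level of the N-proteinases was 121, 97.8 and 117 TPM in embryonic and 36.5, 49.4 and 51.1 TPM in adult samples, 2.45-fold lower in adult. *Adamts2* made up 38.5%, 32.7% and 45.9% of the sum across the embryonic samples, against 92.2%, 93.9% and 99.6% in adult samples. *Adamts3* made up 47.0%, 52.9% and 40.3% of the embryonic sums, and *Adamts14* 14.5%, 14.4% and 13.9%. The embryonic samples thus held all 3 transcripts, with *Adamts3* above *Adamts2* in 2 of 3, and the adult samples held almost only *Adamts2*. The log2 ratio of *Adamts2* to *Adamts14* was 1.35, 1.13 and 1.66 in embryonic and 3.18, 4.03 and 5.43 in adult samples (difference 2.83, or 3.72 at a pseudocount of 0.1, exact two-sided permutation p = 0.1).

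*Adamts6* and *Adamts12* moved in opposite directions. *Adamts12* was at 39.3, 20.1 and 32.8 TPM in embryonic and 0.644, 0.0834 and 0.860 TPM in adult samples. Its adult values were all under 1 TPM, and its log2 fold change was -4.36 (SE 0.417, 95% interval -5.31 to -3.41, limma adjusted p = 7.7e-05). The log2 fold change was -5.87 at a pseudocount of 0.1, outside that interval. *Adamts6* was at 1.40, 3.44 and 1.98 TPM in embryonic and 5.39, 7.64 and 6.84 TPM in adult samples, 2.91-fold higher in the adult mean. The ranges were apart, and the log2 fold change was 1.26 (SE 0.417, 95% interval 0.31 to 2.20, limma adjusted p = 0.0364). This call was the least firm of the 9. The adjusted p of *Adamts6* was 0.113 without embryonic sample 1, 0.0905 without embryonic sample 3, 0.0981 without adult sample 2 and 0.0651 without adult sample 3.

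Ordered by level, *Adamts1* led in the embryo with 225 ± 30.5 TPM (SD, n = 3), apart from all other members. *Adamts3* (47.1 to 56.7 TPM), *Adamts2* (44.1 ± 11.0), *Adamts12* (30.7 ± 9.77) and *Adamts9* (23.3 ± 3.24) followed, each overlapping its neighbour in the order. *Adamts14* (16.0 ± 1.78) was below *Adamts9* in every sample with no overlap, *Adamts5* (15.4 ± 5.31, range 9.94 to 20.6) overlapped both of them, and *Adamts4* (11.4 ± 1.73) overlapped *Adamts5* but not *Adamts14*. *Adamts15* (3.35 ± 1.39) and *Adamts6* (2.27 ± 1.05) were lowest and also overlapped. In the adult, *Adamts5* (91.1 ± 44.9 TPM), *Adamts1* (43.8 ± 15.3) and *Adamts2* (43.7 ± 8.93) were highest, with overlapping ranges, although *Adamts5* was above *Adamts1* in 3 of 3 samples. *Adamts6* (6.62 ± 1.14) stood alone in the middle. *Adamts4* (1.93 ± 1.57), *Adamts9* (1.79 ± 0.887), *Adamts14* (1.65 ± 1.34), *Adamts12*, *Adamts3* and *Adamts15* were all low, each overlapping its neighbour except *Adamts6* above them. *Adamts5* thus went from below 6 other members to first place by the mean, though *Adamts2* was above it in adult sample 2, and *Adamts6* from last to a place below 3 others. The 10 genes together summed to 423 ± 57.1 TPM in the embryo and 191 ± 53.9 TPM in the adult.

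The genes whose log2 levels were most like those of *Adamts1* over the 6 samples were *Gtf2f2*, *Cep112* and *Pofut2*, with Pearson correlations of 0.9993, 0.9991 and 0.999. For *Adamts5* they were *Gnb4*, *Rdh14* and *Herc6*, with 0.9947, 0.994 and 0.9936. *Adamts1* and *Adamts5* both had stage ranges apart, so these values, which are a description, carry the stage difference as well as the order within a stage. The share of each was not tested. Between members, *Adamts1* and *Adamts9* were most alike (0.99) and *Adamts6* and *Adamts15* most opposed (-0.965). *Adamts2* had correlations between -0.139 and 0.168 with the other members. *Adamts5* and *Adamts6*, the members higher in adult, had a correlation of 0.697, and adult sample 2 was the lowest adult sample for *Adamts5* and the highest for *Adamts6*.

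Of the 9 other ADAMTS genes, 6 were tested, of which 4 were lower, 2 were not called and none was higher, with a median log2 fold change of -1.57. *Adamts17* was at 27.0, 18.1 and 30.7 TPM in embryonic and 0, 0.917 and 3.55 TPM in adult samples (limma adjusted p = 0.001). *Adamts10*, which like *Adamts6* acts on fibrillin microfibrils, was at 37.0, 35.3 and 41.5 TPM in embryonic and 10.5, 18.8 and 22.3 TPM in adult samples (log2 fold change -1.16, limma adjusted p = 0.0112). *Adamts8* and *Adamts19* were the other called genes, both at 1.97 TPM or more in every embryonic sample and at 0.258 TPM or less in every adult sample. They too passed the filter only through their embryonic values. *Adamts18*, which was under the filter and not tested, went the other way, at 0, 0.0911 and 0 TPM in embryonic and 0.534, 1.51 and 1.54 TPM in adult samples. *Adamts13* was at 0 in every sample. The ADAMTS-like genes encode related proteins without the protease domain, several of which bind fibrillin. Of the 6 tested, 4 were lower in adult and 2 were not called, with a median of -2.25. For both lists, the share of all tested genes called lower was 21.4% and that called higher 23.9%. *Adamtsl3* had a log2 fold change of -2.82 and *Thsd4* (ADAMTSL6) of -3.31, with limma adjusted p = 0.00017 and 0.00062.

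**Figure D3:**
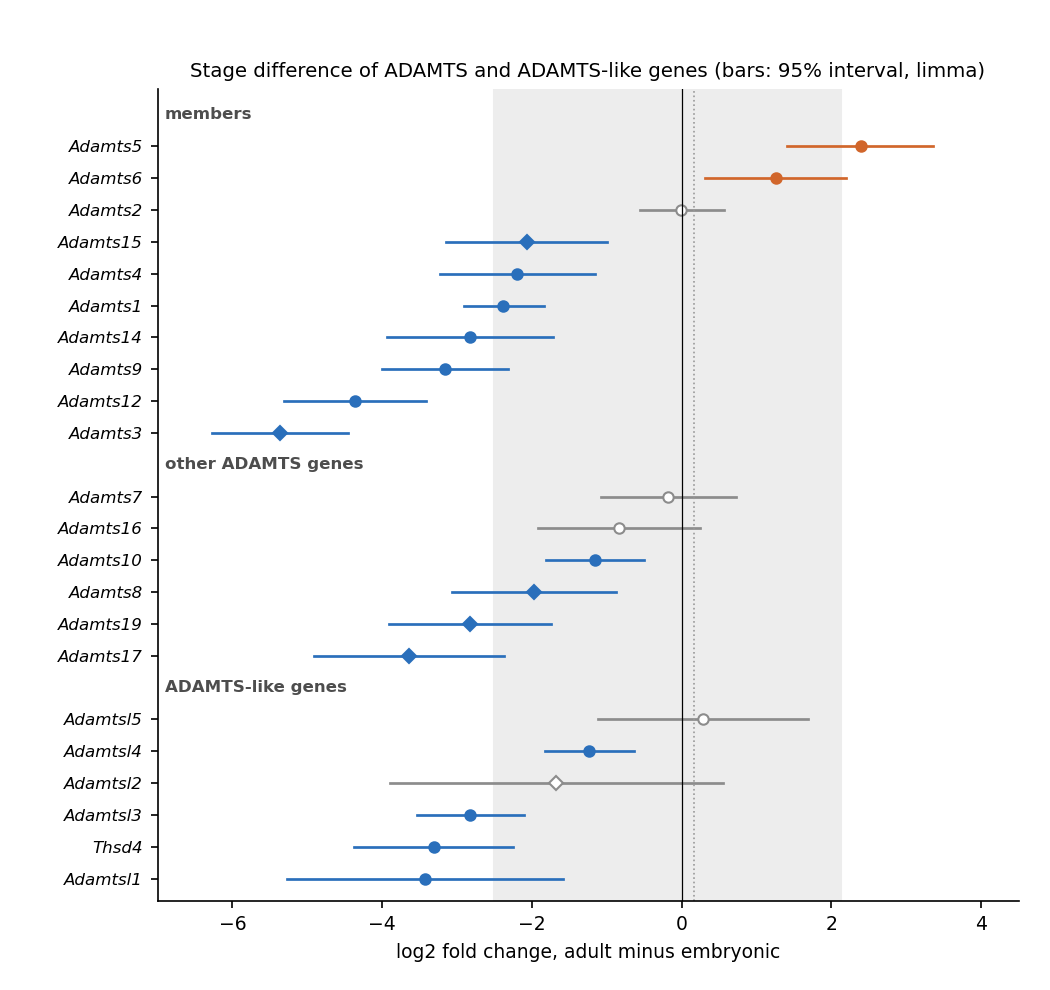
Log2 fold change, adult minus embryonic, of the members, the other tested ADAMTS genes and the tested ADAMTS-like genes, with 95% intervals from limma. Orange is called higher and blue lower in adult at an adjusted p under 0.05, and open grey is not called. Diamonds are genes listed at 0 in at least 1 sample. Their values depend on the pseudocount of 1, as do those of low genes without a 0, such as *Adamts12*. The grey band and dotted line mark the 5th to 95th percentile (-2.51 to 2.13) and the median (0.16) of all tested genes. *Adamts5* and *Adamts6* are the called genes to the right of 0.

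The substrates of these enzymes did not move as one group. *Vcan* (versican) was at 165, 121 and 165 TPM in embryonic and 17.4, 39.5 and 40.6 TPM in adult samples, with a log2 fold change of -2.25 (limma adjusted p = 0.00055). *Acan* (aggrecan) was at 1306, 1018 and 1247 TPM in embryonic and 1265, 2672 and 1756 TPM in adult samples, with overlapping ranges and a limma adjusted p of 0.0717. *Acan* was called higher under quantile normalization, when rescaled without the 20 highest genes and without adult sample 1, with an adjusted p down to 0.0143. All 6 fibrillar collagen genes tested, the substrates of the N-proteinases and their near relatives, were lower in adult, from *Col5a2* at a log2 fold change of -1.08 to *Col3a1* at -4.17. *Col2a1*, the main collagen of cartilage, was at -1.73, between them. Of all tested genes 21.4% were called lower. *Col1a1* and *Col3a1* are also among the tendon and fibroblast markers above. Of the other substrates, *Comp*, which ADAMTS12 can cut, was higher in adult (1.89, limma adjusted p = 3.8e-05), opposite to *Adamts12*. *Vegfc*, the growth factor activated by ADAMTS3, was lower in adult (-1.97, limma adjusted p = 0.0107), as was *Ccbe1*, its cofactor (-1.60, limma adjusted p = 0.0239). *Ccbe1* lost its call when any embryonic sample or adult sample 2 was left out, with an adjusted p of up to 0.078. *Fbn1* (fibrillin 1) was lower at -2.88 (limma adjusted p = 2.5e-05), and *Fbn2*, the embryonic fibrillin, went from 148 to 210 TPM in the embryo to 0, 0.0165 and 0 TPM in the adult.

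Of the inhibitors, *Timp1*, *Timp2* and *Timp3* were higher in adult, as was the clearance receptor *Lrp1*. *Timp3*, the tissue inhibitor of metalloproteinases that binds ADAMTS4 and ADAMTS5 most tightly, was at 104, 90.5 and 91.7 TPM in embryonic and 1392, 1387 and 1289 TPM in adult samples. The samples of a stage were close together and the mean was 14.2-fold higher in adult (log2 fold change 3.82, SE 0.115, limma adjusted p = 1.4e-07). *Lrp1*, the endocytic receptor that takes up ADAMTS4, ADAMTS5 and TIMP3, was at 272, 187 and 226 TPM in embryonic and 896, 892 and 911 TPM in adult samples, 3.94-fold higher (limma adjusted p = 1.9e-05). *Timp1* was higher by 1.14 (limma adjusted p = 0.00148) and *Timp2* by 0.39 (limma adjusted p = 0.0199). The *Timp2* call was lost under median-of-ratios scaling, with eBayes without trend and without embryonic sample 2 or 3, with an adjusted p of up to 0.109. Altogether 4 of the 5 tested genes of this list were higher and none was lower, against 23.9% and 21.4% of all tested genes. *A2m*, which encodes a general protease trap, had a log2 fold change of -0.85 (limma adjusted p = 0.215), and *Timp4*, under 0.5 TPM in every sample, was not tested.

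Genes that process the enzymes showed no common direction. Of the 4 proprotein convertases, *Furin*, *Pcsk6* and *Pcsk7* were not called (log2 fold changes 0.37, 0.24 and 0.03), and *Pcsk5* was lower at -0.90 (limma adjusted p = 0.0401). *Pcsk5* lost its call when any sample other than adult 2 was left out, with no filter and when rescaled without the 20 highest genes, with an adjusted p of up to 0.135. *Pofut2*, which adds O-fucose to thrombospondin repeats and is needed for secretion of several ADAMTS proteins, was at 171, 153 and 191 TPM in embryonic and 54.6, 49.4 and 70.2 TPM in adult samples (log2 fold change -1.56, limma adjusted p = 0.00016). *B3glct*, which extends that fucose with glucose, was higher at 0.92 (limma adjusted p = 0.0179), and that value reached 0.0567 without embryonic sample 1 or 3. Of the genes for the opposite end of procollagen, *Bmp1*, a C-proteinase, was lower at -1.71 (limma adjusted p = 0.00011). *Tll1*, of the same list, went the other way without a call (0.83, limma adjusted p = 0.0669). Its ranges were apart, at 7.53, 5.23 and 4.89 TPM in embryonic and 10.6, 11.9 and 10.7 TPM in adult samples. *Tll1* was called when rescaled without the 20 highest genes and with eBayes without trend. The C-proteinase enhancers differed from each other. *Pcolce* was lower at -1.13 (limma adjusted p = 0.00012) and *Pcolce2* higher at 2.20 (limma adjusted p = 0.0001). Over the 9 lists of related genes, 48 genes were found and 41 tested, of which 7 were higher in adult, 23 lower and 11 not called. Of all tested genes 23.9% were called higher and 21.4% lower.

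**Figure D4:**
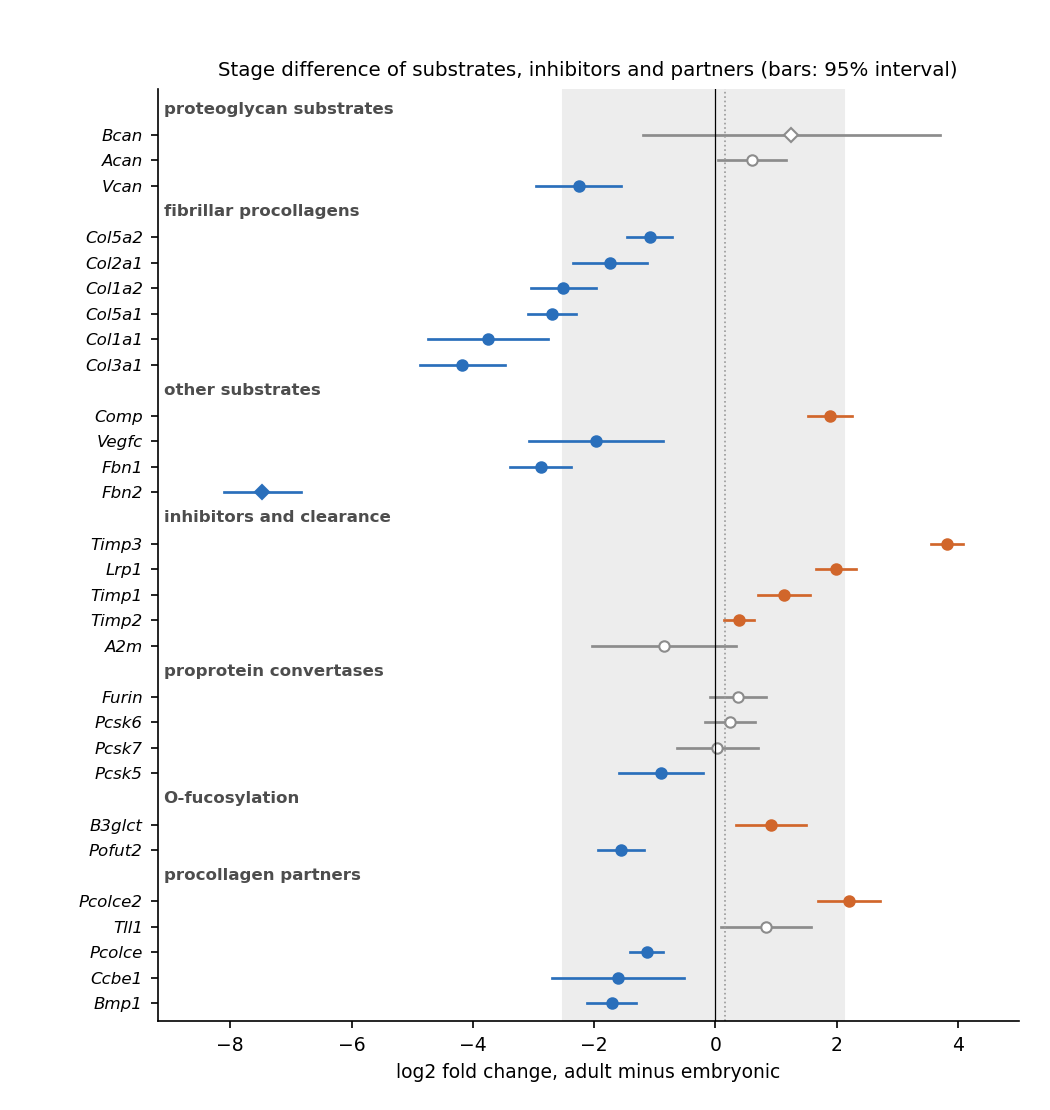
Log2 fold change, adult minus embryonic, of substrates, inhibitors, processing enzymes and procollagen partners of the ADAMTS enzymes, with 95% intervals from limma. Colours, diamonds, grey band and dotted line are as in the plot of ADAMTS and ADAMTS-like genes. *Timp3* at 3.82 is the highest and *Fbn2*, near 0 TPM in adult, the lowest, and the 6 fibrillar collagen genes are all below 0.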

How the data were processed

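RNA was taken from sorted knee chondrocytes with a Qiagen Micro kit. The labels name a Kapa mRNA-Seq kit, while the methods name Nugen Ovation amplification, primed with random and poly(T) primers, before library construction. The authors ran RSEM on single-end reads against GRCm38 and deposited log2 values of TPM + 1 per gene, and the version of RSEM and the use of strand are not given in the sources used here. TPM carries no depth, so the precision of a value rests on 3 samples a stage. A 0 can be a failed estimate, since 6 zeros had 20 TPM or more in both other samples of their stage. All 6 columns were used. Overlaps of members with other genes are not all reported here.

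Stages were compared with limma 3.58.1 in R 4.3.3 (eBayes with trend, no covariate, pseudocount 1, mean of at least 1 TPM, Benjamini-Hochberg adjustment over 13125 genes). The methods name EBSeq, which takes counts and was not used here. The members and lists were chosen with earlier results of these data known. Named were all members, the most alike genes of *Adamts1* and *Adamts5*, and genes of the lists, some of them picked out once their values were known. On simulated data with 13125 genes, 59 of 108 genes changed by 2 on the log2 scale were called, and 15 of 92 changed by 1, none with the wrong sign. Among the unchanged genes 3 were called. Far fewer genes were changed there than were called in the real data. The adjusted threshold was therefore stricter, and these rates do not give the sensitivity of the real comparison. Alternatives were quantile, median-of-ratios and top-20-free scaling, another pseudocount (0.1), a filter at 5 TPM or none, eBayes without trend or robust, the replicate block, leaving out each sample, and a threshold of 0.01.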

Additional observations from a re-analysis of the deposited data

How the results depend on the processing

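*Adamts5* and the 7 members lower in adult kept direction and call in every alternative that tested them. The size of the fall depended on the pseudocount where adult levels were low. With 0.1 in place of 1, the log2 fold change was -7.83 for *Adamts3*, -5.87 for *Adamts12* and -5.03 for *Adamts15*. It was -3.72 for *Adamts14* and for *Adamts9*, and -2.76 for *Adamts4*. At a mean of at least 5 TPM the count of members lower in adult was 6, since *Adamts15* was not tested. The count of members higher in adult was 1 in place of 2 under quantile normalization, median-of-ratios scaling, no filter, a mean of at least 5 TPM, an adjusted p under 0.01 and the replicate block, and 1 to 2 with a sample left out. In these settings *Adamts6* lost its call or, at a mean of at least 5 TPM, was not tested; its adjusted p was 0.066 under quantile normalization, 0.0536 under median-of-ratios scaling and 0.0588 with no filter. The log2 fold change of *Adamts2* changed sign, to 0.093 without the 20 highest genes, 0.051 without embryonic sample 1, 0.15 without embryonic sample 3 and 0.17 without adult sample 1, within a range of -0.21 to 0.17 over the samples left out. Over all genes 1855 were higher and 1863 lower at an adjusted p under 0.01, against 3140 and 2809. Alternatives not planned beforehand were the sum without *Adamts1* and, for the ratios between members, a pseudocount of 0.1 and each sample left out. Of these, 2 moved a result. The adult to embryonic ratio of the proteoglycan-cleaving sum was 1.77 without *Adamts1* (0.498 with it), and the difference in the *Adamts2* to *Adamts14* ratio was 3.72 at a pseudocount of 0.1. Same-numbered samples did not deviate together over all tested genes (correlations -0.00884, -0.0169 and -0.0223). Such correlations cannot tell whether same-numbered samples were handled together. The replicate block gave *Adamts6* a limma adjusted p of 0.057 and also ended the calls of *Timp2* and *Pcsk5*. Of 30 related genes called, 26 kept the call in all alternatives that tested them at the 0.05 threshold, and none changed sign. The cause of these changes was not tested. Depth is not carried by TPM, so low adult values have no counting interval. The paper refers to read numbers in its supplement, which were not used here. Genes listed at 0 numbered 7314 to 7656 in embryonic and 7570 to 8294 in adult samples.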
